A study of Homo sapiens with 12 samples.

Results

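Keratins are the intermediate filament proteins of epithelial cells. Each filament pairs an acidic type I keratin with a basic type II keratin, and the pair in use marks the kind of epithelium. KRT8 and KRT18 form the pair of simple, glandular cells such as the luminal cells of the prostate, where KRT19 is a further type I partner. KRT5, KRT14 and KRT15 mark basal cells, and KRT6A, KRT6B, KRT6C, KRT16 and KRT17 are known for wounded, activated or hyperproliferative epithelium.

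The family was read from the table by gene symbol, taking every name made of KRT, digits and an optional letter, and leaving out keratin-associated proteins. This gave 55 of 19973 genes, 29 of type I and 26 of type II. RNA from 12 libraries of human prostate cancer cells was sequenced in 4 groups of 3. C4-2 cells, a line derived from LNCaP, carried either the vector control (lv-control) or a lentivirus for ARv7 overexpression (lv-ARv7). 22Rv-1 cells, a line that carries ARv7 of its own, held either a hairpin vector control (lv-shcontrol) or a hairpin for ARv7 depletion (lv-shARv7). All 4 groups were infected with lentivirus and grown in serum-containing medium, and the ARv7-expressing and ARv7-depleted cells were obtained by puromycin selection. The control vectors differ between the lines, so vector and line cannot be told apart in a comparison of the control groups. Dishes were plated in triplicate, and the number of independently selected populations behind them was not given in the sources used here. The p-values therefore measure the spread between dishes.

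Total counts ran from 12318529 to 14672948 per library, so that 3 reads corresponded to 0.204 to 0.244 CPM, which are counts relative to library size. C4-2 control replicate 3 stood apart from the other 2 of its group, where chi-square over genes divided by its degrees of freedom was 13.0 and 7.15, against 2.12 to 4.77 for the other replicate pairs of all groups. Of 10 luminal prostate markers, 9 were found under their symbols, and all 9 stood at 1 CPM or more in every group. TP63, the defining basal factor, did not pass a group mean of 0.098 CPM, but other basal genes were present. Of a list of 8 basal genes with TP63 among them, 5 stood at 1 CPM or more in both C4-2 groups and 22Rv-1 control. In depleted 22Rv-1 there were 6. Mean ITGA6 was 77.7 CPM in C4-2 control, and mean SNAI2 was 112 and DST 57.5 CPM in 22Rv-1 control. The summed level of 4 leukocyte markers did not pass 2.03 CPM in a library.

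The 26 type II genes and KRT18 lie together on chromosome 12 (27 keratins, 52168996 to 52952906), and the other 28 lie on chromosome 17 (40654665 to 41624842). Coordinates are those of the table. The labels name hg18, but all 55 identifiers lay within 435 bases of their positions in GENCODE 29 on GRCh38, 22 of them with the same start and end.

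Most of the family had few reads or none. No read was counted in any library for 19 keratins, and another 12 had 1 to 5 reads over all 12 libraries. All 26 hair and root sheath keratins stood at 10 reads or fewer in every library, 15 of them with no read. A mean of 1 CPM in at least 1 group was reached by 12 keratins. These were KRT7, KRT8, KRT18, KRT19 and KRT80 of simple epithelia, KRT14, KRT15 and KRT17 of the basal and activated kind, and KRT6A, KRT6B, KRT6C and KRT10 of suprabasal or wounded epithelium. The other 43 did not reach that level, and the 24 of them with any read held at most 14 reads in a library.

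**Figure D1:**
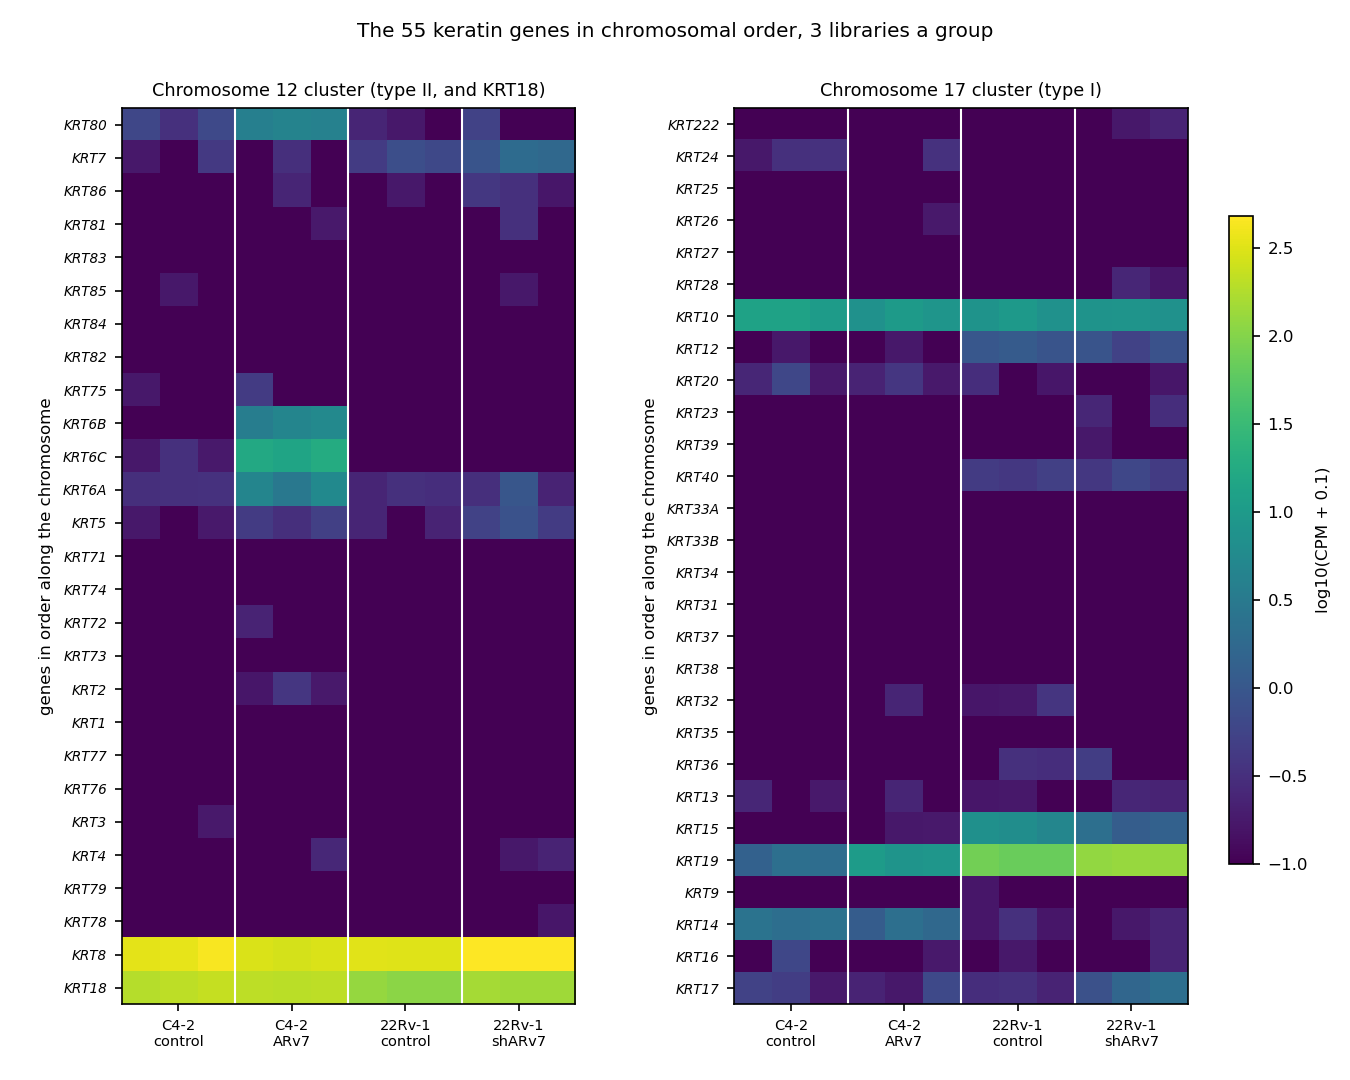
Level of each of the 55 keratins (rows of the heat map, in chromosomal order) in the 12 libraries, as log10 of CPM plus 0.1. KRT8 and KRT18 at the end of the chromosome 12 group are high in every library, KRT19 on chromosome 17 is high in 22Rv-1, and the KRT6 genes stand out in the C4-2 ARv7 libraries.

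KRT8, KRT18 and KRT19 made up almost all keratin reads. Together they held from 91.9% to 98.1% of keratin reads in each library. Keratins as a whole took 0.0557% ± 0.00508 of all counts in C4-2 control (SD, n = 3) and 0.0551% ± 0.00164 in C4-2 ARv7 (SD, n = 3), with overlapping libraries. In 22Rv-1 the share was 0.0540% ± 0.0022 in control (SD, n = 3) and 0.0805% ± 0.00023 in depleted cells (SD, n = 3). The 22Rv-1 groups did not overlap, with 0.0524% to 0.0565% in control and 0.0802% to 0.0807% in depleted libraries.

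Levels between genes were set side by side as FPKM, counts per gene length and library total. In C4-2 control, KRT18 was at 62.1 ± 4.96 FPKM and KRT8 at 50.8 ± 5.67 (SD, n = 3). KRT10 followed at 5.17 ± 0.796, and then KRT14 at 0.913 ± 0.0814 and KRT19 at 0.705 ± 0.162. The last of these means differ by about the spread of KRT19, so their order is not firm. In C4-2 ARv7, KRT18 and KRT8 were again first, and KRT6C at 5.63 ± 0.726 FPKM, KRT10 at 3.94 ± 0.634 and KRT19 at 3.89 ± 0.603 came next. KRT10 and KRT19 were not separated there by their spread. In 22Rv-1 control the order was KRT8 at 48.1 ± 1.06 FPKM, KRT18 at 38.4 ± 3.10, KRT19 at 31.6 ± 2.10, KRT10 at 3.78 ± 0.515 and KRT15 at 1.03 ± 0.195. In depleted 22Rv-1 cells, KRT8 stood at 73.1 ± 0.816 FPKM, KRT19 at 56.2 ± 2.03 and KRT18 at 50.4 ± 2.40, so that KRT19 came before KRT18. The deposited length of KRT8 is that of all its annotated exons, 6881 bases, and its FPKM depends on that choice.

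With the deposited gene lengths, type I and type II sums of FPKM stayed near each other. Most of the type II sum was KRT8, whose length is 6881 bases, against 3069 for KRT18. KRT8 had more reads than KRT18 in every library, so this balance and the level of the KRT18 to KRT8 ratio depend on those lengths. The type I sum was 1.36 times the type II sum in C4-2 control, 1.43 times in C4-2 ARv7, 1.56 times in 22Rv-1 control and 1.51 times in depleted 22Rv-1 cells, as means of 3 libraries. The makeup inside type I differed by line. KRT19 gave 1.01% of type I FPKM in C4-2 control and 5.11% with ARv7, against 41.7% in 22Rv-1 control and 50.2% after depletion. The ratio of KRT18 to KRT8 in FPKM was 1.21, 1.31 and 1.17 without ARv7 in C4-2 and 1.53, 1.61 and 1.56 with it. In 22Rv-1 it was 0.852, 0.761 and 0.780 in control and 0.731, 0.675 and 0.662 after depletion. The ratio was higher in every ARv7 library than in any C4-2 control library, and lower in every depleted than in any 22Rv-1 control library.

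**Figure D2:**
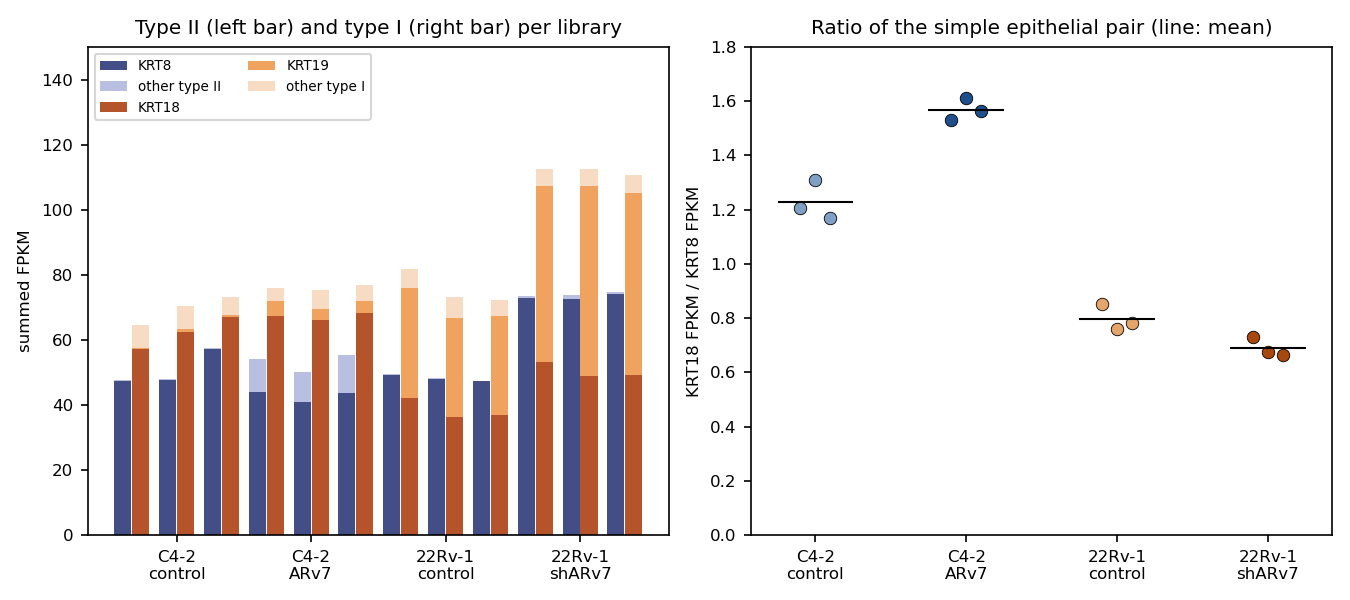
Left, summed FPKM of type II and type I keratins in each of the 12 libraries, split by gene. Right, the ratio of KRT18 to KRT8 FPKM in each library, from 1.17 to 1.31 in C4-2 control, 1.53 to 1.61 in C4-2 ARv7, 0.761 to 0.852 in 22Rv-1 control and 0.662 to 0.731 in depleted 22Rv-1 cells.

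KRT8 and KRT18 sit head to head, with exons that overlap on opposite strands by 525 bases, 7.63% of the exon bases of KRT8 and 16.3% of those of KRT18. The strand used in counting was not given in the sources used here, so reads in the overlap cannot be told apart. Both genes also have many processed copies in GENCODE 29, 50 named as KRT8 and 67 as KRT18 pseudogenes.

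The comparison of C4-2 ARv7 with C4-2 control asked what ARv7 expression does to the transcriptome. Of the 55 keratins, 9 had enough counts to be tested, and 7 of these passed an edgeR adjusted p of 0.05, 5 higher and 2 lower. Over all 12783 genes tested in C4-2, 59.1% were called (29.6% higher, 29.5% lower), so a call alone says little of a keratin, and the sizes are the description. KRT6A, KRT6B, KRT6C and KRT80 met the count filter through their ARv7 libraries alone and had to be higher there, so the 5 higher calls say nothing of a direction of the family. With total counts and no scaling for composition, 67.1% of called genes in C4-2 were higher, where TMM gave 3781 of 7557, and the median of all genes moved to 0.15 on the log2 scale.

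The most marked change in the family was in the KRT6 genes, partners of KRT16 and KRT17 in wounded epithelium. Their coding sequences are close to each other, which bears on how reads are shared among them. The stretch of 60 bases where the 3 differ most, coding positions 663 to 722 counted from the start codon, is shown from GENCODE 29 (GRCh38, minus strand of chromosome 12), with the 9 positions that differ in capitals. It lies at chr12:52491555-52491614 in KRT6A, chr12:52450439-52450498 in KRT6B and chr12:52472099-52472158 in KRT6C, in exons.
KRT6A: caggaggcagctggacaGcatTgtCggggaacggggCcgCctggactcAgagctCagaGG
KRT6B: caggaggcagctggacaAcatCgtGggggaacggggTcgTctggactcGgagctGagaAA
KRT6C: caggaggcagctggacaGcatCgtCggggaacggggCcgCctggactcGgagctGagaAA
The first 60 coding bases are identical in all 3. Over 1692 coding bases, KRT6A and KRT6B were identical at 97.5%, KRT6A and KRT6C at 97.9%, and KRT6B and KRT6C at 98.5%, with identical runs of up to 349 bases. Of all runs of 75 coding bases, 35.1% in KRT6A, 46.2% in KRT6B and 57.3% in KRT6C also occurred in transcripts of another gene. How the authors assigned such reads was not given in the sources used here, so the split among the 3 is uncertain.

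The C4-2 control libraries held 1, 3 and 1 reads of KRT6C, and the ARv7 libraries held 241, 199 and 228. By total counts this was a ratio of 143 with an exact 95% counting interval of 60.9 to 441, and the edgeR log2 fold change was 6.91 (SE 0.315, adjusted p = 3.56e-13). Every ARv7 library was far above every control library. KRT6B had no read in the 3 control libraries and 53, 66 and 66 reads with ARv7 (edgeR adjusted p = 1.12e-08). It was 65.9-fold higher when the controls are set to 3 counts over the group, and the exact 95% counting interval began at 53.1. KRT6A had 3 reads in each control library and 68, 41 and 69 with ARv7, a log2 fold change of 4.21 (SE 0.427, edgeR adjusted p = 7.00e-08). None of the 3 overlapped between the groups.

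The sum of the 3 KRT6 counts, which does not depend on the split, was 4, 6 and 4 reads in control and 362, 306 and 363 with ARv7. Its log2 fold change was 6.12 (SE 0.239, edgeR adjusted p = 3.40e-14), in a fit of the summed gene chosen after seeing the data. At 5.63 ± 0.726 FPKM for KRT6C, 1.99 ± 0.382 for KRT6B and 1.50 ± 0.461 for KRT6A (SD, n = 3), KRT6C stood above the others, and KRT6A and KRT6B were within their spread of each other. All 3 remained small beside KRT8 at 42.9 ± 1.64 FPKM in the same libraries. KRT16, the usual type I partner, had 0, 0 and 1 reads with ARv7, and KRT17 had 2, 1 and 7. KRT5, the neighbour of KRT6A, had 5, 3 and 5 reads with ARv7 and 1, 0 and 1 in control, too few to be tested, with a ratio of 6.95 and a counting interval of 1.57 to 63.4.

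KRT80, a type II keratin found in many epithelia, had 7, 3 and 7 reads in C4-2 control and 56, 61 and 50 with ARv7. It rose 9.30-fold (log2 3.22, SE 0.362, edgeR adjusted p = 2.83e-07), with no overlap. KRT19, the small type I keratin of simple epithelia, was at 1.31, 2.14 and 1.94 CPM in control and 10.6, 7.91 and 8.47 CPM with ARv7. It rose 4.96-fold (log2 2.31, SE 0.230, edgeR adjusted p = 5.23e-08), and again the groups did not overlap. In bulk RNA, fewer cells with a transcript and less transcript per cell cannot be told apart.

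KRT8, the main type II keratin, was at 346, 354 and 442 CPM in C4-2 control and 300.3, 279.9 and 295.5 CPM with ARv7. It fell 1.31-fold (log2 -0.39, SE 0.075, edgeR adjusted p = 0.000162). The groups did not overlap, and the highest control value was that of replicate 3, the library that stood apart. Without it the log2 fold change was -0.28 (edgeR adjusted p = 1.67e-06). KRT18 was at 185.8, 206.8 and 230.7 CPM in control and 204.9, 201.2 and 205.9 CPM with ARv7. The ARv7 values lay inside the control range, and the log2 fold change of -0.04 (SE 0.068, edgeR adjusted p = 0.666) took the other sign with total counts (0.11). KRT10, a suprabasal type I keratin, was at 13.1, 13.0 and 10.3 CPM in control and 7.18, 9.90 and 8.23 CPM with ARv7. It fell 1.45-fold (log2 -0.54, SE 0.158, edgeR adjusted p = 0.00646), with no overlap in CPM. In FPKM, which has no scaling for composition, the groups overlapped, with ARv7 replicate 2 at 4.61 and control replicate 3 at 4.26. With total counts the fall was smaller (log2 -0.39, edgeR adjusted p = 0.0466). Leaving out 1 library gave an edgeR adjusted p of up to 0.0476.

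KRT14, the basal partner of KRT5, was at 2.40, 2.06 and 2.25 CPM in control and 1.08, 2.14 and 1.68 CPM with ARv7. The groups overlapped, and the log2 fold change of -0.47 (SE 0.322, edgeR adjusted p = 0.22) did not pass the test. Markers of other cells differed between the same groups as the KRT6 genes. The sum of 5 urothelial markers was 3.13 to 3.96 CPM in C4-2 control and 11.8 to 14.0 CPM with ARv7, with UPK1B at 0 in both groups. Mean UPK3A rose from 1.27 to 8.48 CPM and UPK3B from 1.62 to 3.94 CPM. UPK1A and UPK2 did not rise, with means of 0.348 and 0.197 CPM in control and 0.213 and 0.142 CPM with ARv7. The sum of 4 endothelial markers was 4.13 to 5.02 CPM and 7.59 to 9.01 CPM, with CDH5 at 0 in control and PECAM1 at 0 with ARv7. Within it, mean VWF rose from 3.63 to 8.39 CPM and KDR fell from 0.775 to 0.0237 CPM. The sum of 6 fibroblast markers was 8.70 to 10.1 CPM and 15.4 to 17.4 CPM, with DCN and LUM at 0 in control. Mean PDGFRB rose from 0.351 to 4.36 CPM and COL1A1 from 8.14 to 11.4 CPM, whereas COL3A1 fell from 1.03 to 0.101 CPM. The sum of 5 neuroendocrine markers was lower with ARv7, at 50.4 to 62.6 CPM in control and 27.2 to 33.5 CPM with ARv7. Most of it was ENO2, with means of 53.8 and 27.5 CPM. The part of these markers in the keratin changes was not tested. TP63, the basal factor, had a mean of 0.075 CPM in control and 0.046 CPM with ARv7.

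**Figure D3:**
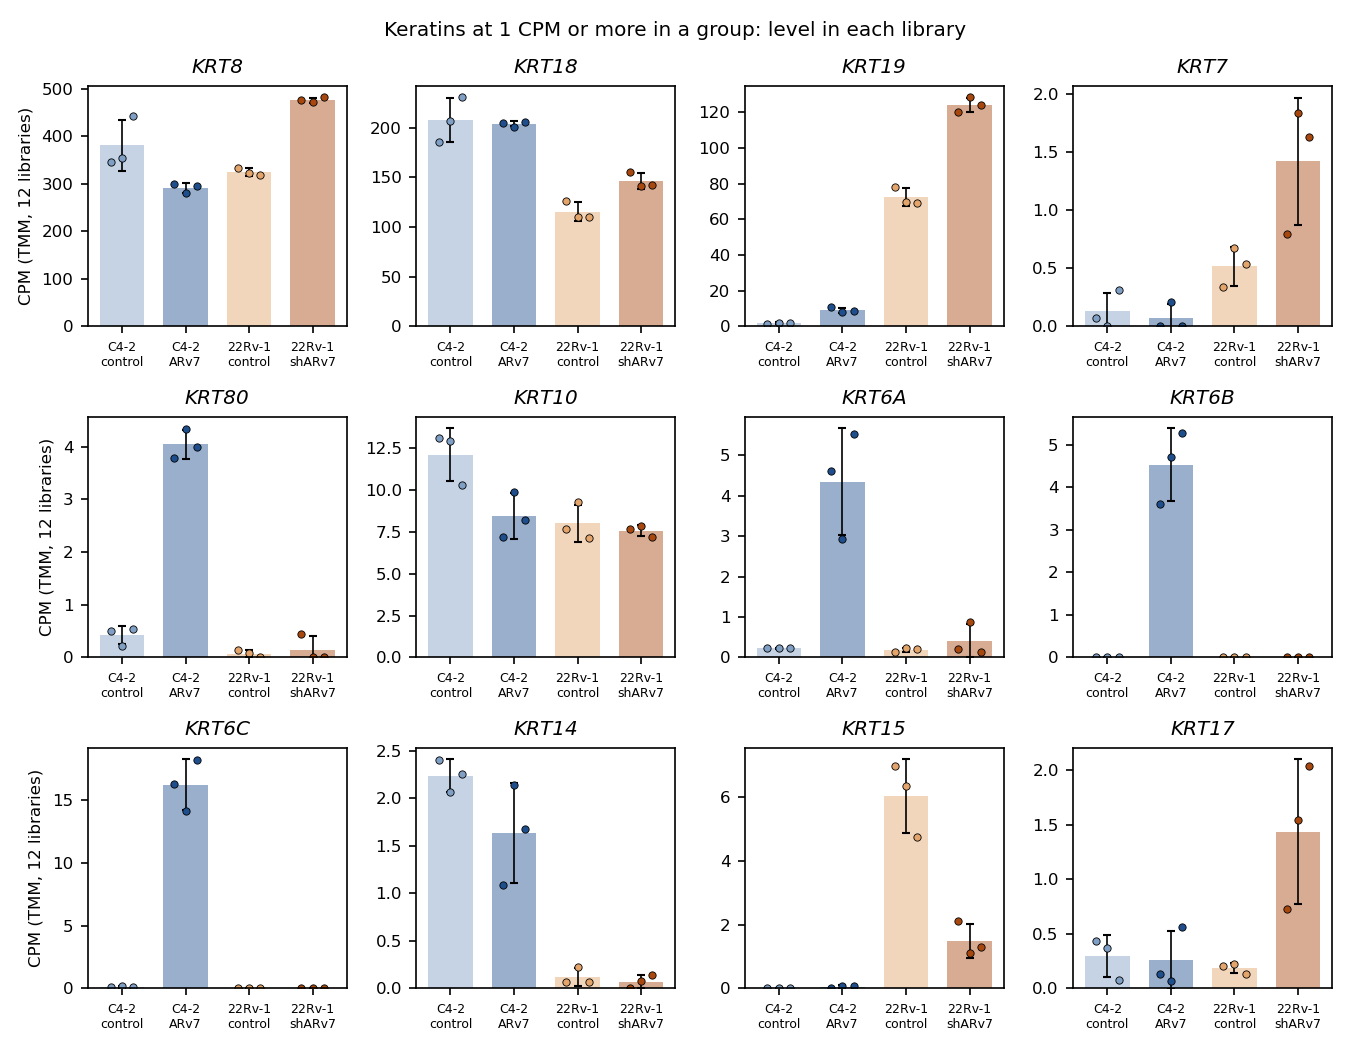
CPM of the 12 keratins that reached a mean of 1 CPM in a group. Bars are means of 3 libraries from 0, lines are SD and points are libraries. The KRT6 genes, KRT80 and KRT19 are higher in C4-2 ARv7 than in C4-2 control, and KRT8, KRT18 and KRT19 are higher and KRT15 lower in depleted than in control 22Rv-1 cells.

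The comparison of 22Rv-1 cells with ARv7 depletion and their vector control asked the reverse question. Here 8 keratins were tested and 6 passed, 5 higher and 1 lower in depleted cells, beside 48% called over all 13459 genes tested (23.9% higher, 24.1% lower). KRT7 and KRT17 met the count filter through their depleted libraries alone and had to be higher there, so the count by direction says nothing of the family here either.

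The 3 abundant luminal keratins all rose. KRT8 was at 334, 323 and 318 CPM in 22Rv-1 control and 476, 471 and 482 CPM after depletion. It rose 1.47-fold (log2 0.56, SE 0.044, edgeR adjusted p = 2.01e-18), with every depleted library above every control library. KRT18 was at 126.8, 109.8 and 110.5 CPM in control and 155.2, 141.8 and 142.3 CPM after depletion. It rose 1.27-fold (log2 0.34, SE 0.057, edgeR adjusted p = 4.53e-07), less than KRT8 but without overlap. KRT19 was at 78.2, 69.8 and 69.3 CPM in control and 120.3, 128.3 and 124.0 CPM after depletion. It rose 1.72-fold (log2 0.78, SE 0.061, edgeR adjusted p = 4.57e-19), and the gap between the groups was wider than the range within either.

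KRT15, a basal type I keratin, moved the other way. It was at 6.99, 6.35 and 4.74 CPM in 22Rv-1 control and 2.10, 1.10 and 1.29 CPM after depletion, so that the highest depleted value was below the lowest control value. It fell by 2.00 on the log2 scale ( SE 0.262, edgeR adjusted p = 8.20e-10). KRT15 and KRT19 lie 1087 bases apart on the same strand of chromosome 17. They changed in opposite directions in 22Rv-1.

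KRT7 and KRT17 were scarce. KRT7, a simple type II keratin of ductal and urothelial cells, had 5, 9 and 8 reads in 22Rv-1 control and 11, 25 and 24 after depletion, with no overlap. It rose 2.75-fold (log2 1.46, SE 0.462, edgeR adjusted p = 0.00641), a call lost when depleted replicate 2 was left out (log2 1.24, adjusted p = 0.0532). KRT17 had 3, 3 and 2 reads in control and 10, 21 and 30 after depletion. It rose 7.45-fold (log2 2.90, SE 0.574, edgeR adjusted p = 1.63e-05), and all depleted libraries were above the controls. KRT5, not tested, had 2, 0 and 2 reads in control and 6, 10 and 5 after depletion, a ratio of 5.54 with a counting interval of 1.87 to 22.2.

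KRT10 was at 7.67, 9.27 and 7.15 CPM in 22Rv-1 control and 7.69, 7.85 and 7.19 CPM after depletion. The groups overlapped (log2 -0.08, edgeR adjusted p = 0.728). KRT12, a keratin best known from the cornea, had 13, 14 and 12 reads in control and 11, 6 and 11 after depletion, and did not pass the test (log2 -0.45, edgeR adjusted p = 0.46). No read of KRT6B or KRT6C was counted in any of the 6 22Rv-1 libraries, and KRT6A stood at 2, 3 and 3 reads in control and 3, 12 and 2 after depletion. Markers of other cells were also read in these groups. The sum of 5 urothelial markers was 3.273 to 3.631 CPM in control and 3.628 to 5.43 CPM after depletion, so the groups overlapped. UPK3A alone of the 3 tested passed, and UPK1A was at 0 after depletion. The sum of 6 fibroblast markers was 44.6 to 46.5 CPM and 28.98 to 32.6 CPM, and that of 5 neuroendocrine markers 549.7 to 618.2 CPM and 333.2 to 351.4 CPM. The fibroblast markers did not move together. Mean LUM fell from 22.1 to 2.31 CPM and DCN from 2.33 to 0.166 CPM. COL1A1 rose from 16.9 to 21.1 CPM and COL3A1 from 4.21 to 6.89 CPM. The part of these markers in the keratin changes was not tested.

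**Figure D4:**
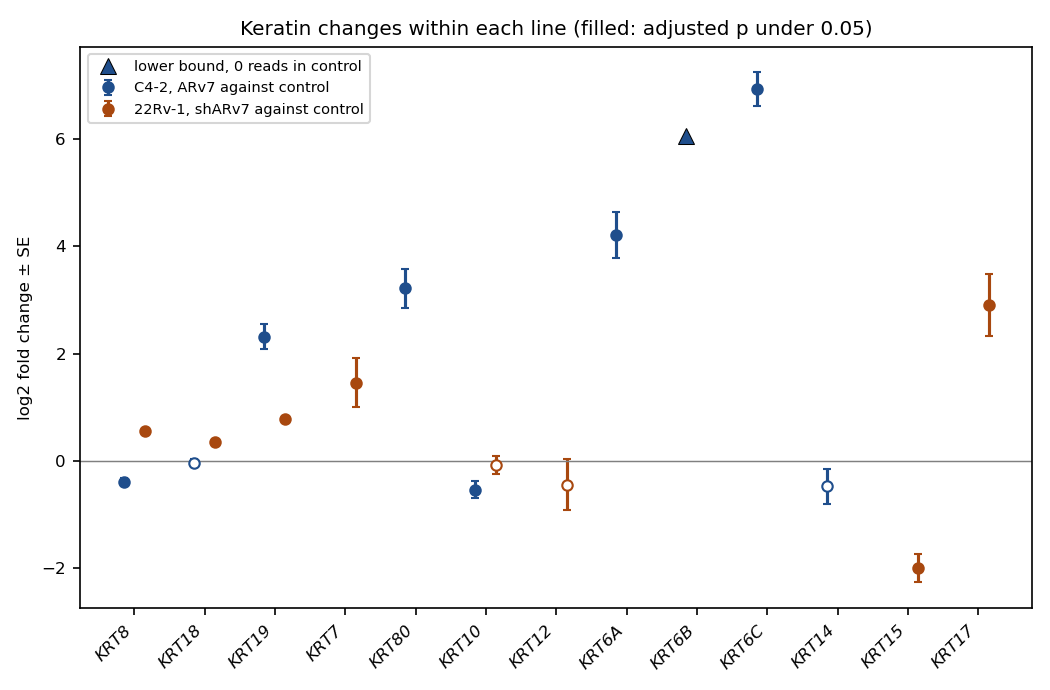
Tested keratins, with log2 fold change and standard error for C4-2 ARv7 against control and for 22Rv-1 ARv7 depletion against control. Filled points passed an edgeR adjusted p of 0.05. The triangle for KRT6B, marked as a lower bound, sets its empty control group to 3 counts. KRT19 is higher in both comparisons, at 2.31 and 0.78, and KRT8 is at -0.39 and 0.56.

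Whether the lines responded alike to more ARv7 was tested in a fit of all 12 libraries, with the 22Rv-1 control taken as the group with more ARv7. Of 13 keratins, 6 passed, 5 with a higher and 1 with a lower response in C4-2, beside 50.7% called over 14235 genes (27.4% higher, 23.3% lower). KRT6A and KRT80 met the count filter through the C4-2 ARv7 libraries, and KRT17 through the depleted 22Rv-1 libraries. High counts in either group make the difference higher, so the count by direction says nothing of the family. With total counts, 71.9% of called genes were higher instead of 54.0%, and the median of all genes moved from 0.062 to 0.25. KRT19 rose with overexpression in C4-2 and also with depletion in 22Rv-1, so with more ARv7 it moved in opposite directions, and the difference was 3.10 on the log2 scale (SE 0.190, edgeR adjusted p = 2.41e-16). KRT18 differed by 0.31 (SE 0.0933, edgeR adjusted p = 0.00505) and KRT6A by 5.30 (SE 0.932, edgeR adjusted p = 1.07e-05). For KRT6B and KRT6C the difference could not be fitted, because 22Rv-1 had no read of either.

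KRT8 was lower with more ARv7 in both lines, and its difference of 0.17 (SE 0.0889, edgeR adjusted p = 0.112) did not pass. It passed with total counts (0.36, adjusted p = 0.000356) and without C4-2 control replicate 3 (0.29, adjusted p = 0.000112). KRT80 differed by 4.17 (SE 1.34, edgeR adjusted p = 0.00942). Depleted 22Rv-1 replicate 1 was the single library of its group with KRT80 reads, 6 of them. Without that library the group was empty, so the fit (edgeR adjusted p = 0.684) cannot tell whether the difference holds. KRT17 differed by 2.61 (SE 1.08, edgeR adjusted p = 0.0427) and KRT10 by -0.61 (SE 0.227, edgeR adjusted p = 0.0245), and neither call was stable.

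The call of KRT17 was lost in 8 of 12 fits that left out 1 library. The edgeR adjusted p was 0.0506 and 0.0893 without C4-2 control replicates 2 and 3, and 0.434 without C4-2 ARv7 replicate 3. It was 0.0621, 0.0554 and 0.0834 without 22Rv-1 control replicates 1, 2 and 3, and 0.0619 and 0.0966 without depleted replicates 2 and 3. The call of KRT10 was lost in 5 of the 12, with an adjusted p of 0.0546 and 0.0561 without C4-2 control replicates 1 and 2, 0.0832 without C4-2 ARv7 replicate 1, 0.0918 without 22Rv-1 control replicate 2 and 0.0559 without depleted replicate 3. It was also lost with total counts (-0.42, adjusted p = 0.124).

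The vector controls of the lines were set side by side to describe their keratin makeup. Of 13 keratins, 10 passed, 4 higher and 6 lower in 22Rv-1, beside 83.4% called over the 14235 genes (42.5% higher, 40.9% lower). KRT12 and KRT15 met the count filter through 22Rv-1 libraries alone and KRT14 through C4-2 libraries alone, which set their direction. KRT19 was 40.2-fold higher in 22Rv-1 (log2 5.33, edgeR adjusted p = 5.38e-30). KRT15 had 102, 85 and 71 reads in 22Rv-1 and none in C4-2 control (edgeR adjusted p = 9.11e-14). It was 89.2-fold higher with C4-2 control set to 3 counts over the group, and the exact 95% counting interval began at 72.0. KRT12 had 39 reads against 1, a ratio of 40.5 with a counting interval of 6.85 to 1638 (edgeR adjusted p = 1.27e-05). All 3 are type I keratins.

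KRT14, with 33, 28 and 29 reads in C4-2 control and 1, 3 and 1 in 22Rv-1, was 17.4-fold lower in 22Rv-1 by total counts, with a counting interval of 7.17 to 54.7 (edgeR adjusted p = 3.5e-08). Of the basal group, KRT14 was thus read mainly in C4-2 control and KRT15 in 22Rv-1 control, both picked up by the filter through those lines. The other members did not separate the controls. KRT5 had 4 reads in 22Rv-1 control and 2 in C4-2 control, and KRT17 had 8 and 12 (edgeR adjusted p = 0.467). KRT18 was lower in 22Rv-1 (log2 -0.84, edgeR adjusted p = 2.85e-14), as was KRT10 (log2 -0.60, edgeR adjusted p = 0.00067). KRT8 differed little, and its call (log2 -0.23, edgeR adjusted p = 0.0012) was lost with total counts (-0.08, adjusted p = 0.214) and without C4-2 control replicate 3 (-0.10, adjusted p = 0.0605). The calls of KRT7, KRT80 and KRT6C rested on 22 reads against 5, 3 against 17, and 0 against 5. For KRT7 the edgeR adjusted p went from 0.0296 to 0.0885 and 0.136 without C4-2 control replicates 1 and 2, and to 0.0895 and 0.0583 without 22Rv-1 control replicates 2 and 3. For KRT80 it went from 0.0164 to 0.0763 without 22Rv-1 control replicate 3. For KRT6C it went from 0.0227 to 0.0909 without C4-2 control replicate 2, and to 0.0502 and 0.0515 without 22Rv-1 control replicates 1 and 3.

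Genes that work with keratins were read from lists, whose counts are to be read beside the 59.1% of all genes called in C4-2 and the 48% called in 22Rv-1. Desmosomes anchor keratin filaments at cell contacts. Of 14 desmosome genes, 11 were tested in C4-2, where 3 rose and 5 fell (median log2 -0.32), and 9 in 22Rv-1, where 7 rose and 0 fell (median log2 0.43). DSC1 and DSC3 met the count filter through C4-2 control libraries alone and had to be lower with ARv7. PKP1 met it in 22Rv-1 through depleted libraries alone and had to be higher there. The counts by direction thus include genes whose direction was set by the filter. JUP, the plakoglobin that links cadherins to the plaque, was at 451, 483 and 585 CPM in C4-2 control and 385, 348 and 369 CPM with ARv7, and fell (log2 -0.47, edgeR adjusted p = 2.40e-05). In 22Rv-1 it was at 182.7, 177.7 and 160.8 CPM in control and 300.5, 305.3 and 318.3 CPM after depletion, and rose (log2 0.83, edgeR adjusted p = 9.13e-25). The groups overlapped in neither line. PKP2, a plakophilin of the same plaque, fell in C4-2 (log2 -0.64, edgeR adjusted p = 2.08e-06) and rose in 22Rv-1 (log2 1.41, edgeR adjusted p = 2.92e-13). Not all members went this way. DSG2, of the same list, rose in C4-2 (log2 0.31, edgeR adjusted p = 0.000151) and in 22Rv-1 (log2 0.20, edgeR adjusted p = 0.000355).

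Hemidesmosomes and plakins tie keratins to the matrix and to other filaments. Of 13 such genes, 10 were tested in C4-2, where 5 rose and 1 fell (median log2 0.37), and 12 in 22Rv-1, where 9 rose and 2 fell (median log2 0.90). The 6 of 10 called in C4-2 are about the share over all genes, 59.1%. LAMA3, a laminin chain of the hemidesmosome's matrix anchor, was at 144.4, 145.4 and 144.2 CPM in C4-2 control and 271.6, 270.8 and 254.1 CPM with ARv7 (log2 0.86, edgeR adjusted p = 1.12e-10). It also rose in 22Rv-1, from 1.71, 1.94 and 2.27 CPM to 8.42, 12.5 and 8.76 CPM (log2 2.32, edgeR adjusted p = 1.18e-15). Like KRT19, LAMA3 was thus higher under overexpression in one line and under depletion in the other. EPPK1, a plakin that binds keratin networks, rose in C4-2 (log2 1.44, edgeR adjusted p = 2.32e-12) and in 22Rv-1 (log2 0.94, edgeR adjusted p = 4.94e-07).

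Of 16 other intermediate filament genes, 8 were tested in C4-2 (4 higher, 2 lower) and 10 in 22Rv-1 (3 higher, 5 lower), beside 59.1% and 48% called over all genes. VIM, the filament of mesenchymal cells, was at 1.02, 1.62 and 0.621 CPM in C4-2 control and 6.91, 7.34 and 8.63 CPM with ARv7, and rose (log2 2.78, edgeR adjusted p = 5.95e-08). In 22Rv-1 it was at 41.0, 39.2 and 44.4 CPM in control and 14.6, 12.3 and 13.0 CPM after depletion, and fell (log2 -1.64, edgeR adjusted p = 5.32e-25). With more ARv7, VIM was therefore higher in both lines, with no overlap in either. Of 15 epithelial transcription factors, 12 were tested in each line, with 3 higher and 4 lower in C4-2 and 6 higher and 3 lower in 22Rv-1. The 7 of 12 called in C4-2 are again about the 59.1% over all genes. TFAP2C met the count filter in 22Rv-1 through its depleted libraries alone and had to be higher there. EHF, an ETS factor of epithelia, was at 10.1, 10.2 and 11.95 CPM in 22Rv-1 control and 47.5, 51.1 and 44.7 CPM after depletion (log2 2.15, edgeR adjusted p = 1.28e-31). In C4-2 it was far higher, with means of 1370 CPM in control and 1151 CPM with ARv7. It fell there (log2 -0.26, edgeR adjusted p = 0.00144), a call lost with total counts (-0.12, adjusted p = 0.128). KLF5, a factor of basal and proliferating epithelium, fell in C4-2 (log2 -2.73, edgeR adjusted p = 2.81e-12) and did not pass in 22Rv-1 (log2 -0.05, edgeR adjusted p = 0.619).

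The remaining lists are given by their counts, beside the same 59.1% in C4-2 and 48% in 22Rv-1. Of 8 keratin partners, 7 were tested in C4-2 (1 higher, 0 lower) and 8 in 22Rv-1 (1 higher, 3 lower). Of 15 genes of the cornified envelope, which encloses dead keratinocytes, 3 were tested in each line, with 1 higher and 1 lower in C4-2 and 0 higher and 1 lower in 22Rv-1. Of 8 other basal prostate genes, 5 were tested in C4-2 (2 higher, 0 lower) and 6 in 22Rv-1 (3 higher, 2 lower). CAV1, among these, met the count filter in 22Rv-1 through depleted libraries alone and had to be higher there. Of the luminal markers, 7 rose and 2 fell in C4-2, and 3 rose and 5 fell in 22Rv-1. Both tested urothelial markers, both tested fibroblast markers and 1 endothelial marker rose in C4-2, and 2 neuroendocrine markers fell. In 22Rv-1, 1 of 3 tested urothelial markers rose, 2 of 4 fibroblast markers rose and 2 fell, and 3 of 3 neuroendocrine markers fell. By the same filter, PDGFRB in C4-2 had to be higher with ARv7 and DCN in 22Rv-1 had to be lower after depletion. No leukocyte marker had enough counts to be tested. With total counts, desmosome genes kept 3 higher and 5 lower in C4-2 and 7 higher in 22Rv-1. Hemidesmosome and plakin genes had 5 higher and 1 lower in C4-2 and 9 higher and 1 lower in 22Rv-1. In C4-2, keratin partners then had 4 higher, the epithelial factors 4 higher and 3 lower, and the neuroendocrine markers 1 lower. In 22Rv-1, the other intermediate filaments then had 3 higher and 3 lower, the epithelial factors 7 higher and 3 lower, keratin partners 1 higher and 2 lower, luminal markers 4 higher and 4 lower, and other basal genes 4 higher and 1 lower. The other counts of calls in these lists were equal with total counts in both lines.

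Sequence before the start of the genes was read from RefSeq (GRCh38.p14), in windows of 250 bases before to 50 after the start. A window was held for 34 of the 55 keratins, 38 windows in all, among them only KRT8 and KRT10 of the 12 that reached 1 CPM. The window held for KRT8 lies before an alternative start and not the starts next to KRT18, so it is not shown. The 100 bases before the start of KRT10, on the minus strand at chr17:40822615-40822714, are shown as an example of the TATA motif, in capitals.
KRT10: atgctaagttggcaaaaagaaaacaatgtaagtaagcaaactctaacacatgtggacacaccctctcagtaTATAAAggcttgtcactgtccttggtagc
TATAAA, on either strand, was in 55.3% of keratin windows and in 11.5% of all 35116 windows of that length. It was in windows of 21 of the 34 keratins, and 1 of these 21 reached 1 CPM. The letters GGGCGG were in 15.8% of keratin windows and 45% of all. TGTTCT was in 13.2% and 14.8%. The motif TGANTCA was in 0 keratin windows and 7.71% of all. Neighbouring keratins are copies of each other, so their windows are not independent, and these matches are descriptions of letters.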

How the data were processed

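RNA sequencing of 12 libraries in 4 groups of 3 was read from 1 table of 19974 lines, of which 19973 name a gene. The table holds read counts per gene as deposited by the authors, with no normalization, and FPKM, which per the deposited values is the count divided by gene length and library total (largest relative difference 1.8e-07). Reads were trimmed with Cutadapt 2.7 and the build is named as hg18, per the submitters' processing notes. The aligner, the counting tool, the read length and the strand were not given in the sources used here.

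Counts were tested with edgeR 4.0.16 (filterByExpr, TMM, quasi-likelihood F-test, Benjamini-Hochberg adjusted p under 0.05 over all genes tested). Each line was fitted alone. The difference between lines and the comparison of controls came from a fit of all 12 libraries. CPM uses TMM factors over all 12 libraries. Ratios and their exact 95% binomial intervals use total counts. Where a group was empty, the fold value sets it to 3 counts and the interval takes it as empty. The intervals cover counting error only, since copies made by PCR were not told apart. Keratins with a mean of 1 CPM or more in a group were named with values per library, and of each other list up to 4 genes with the smallest adjusted p. The members and lists were chosen with earlier results of these data known. Alternatives were DESeq2 1.42.0, DESeq2 size factors, total counts, other filters, limma 3.58.1 on log2(FPKM + 1) and log2(FPKM + 0.1), a replicate block and leaving out each library. The scripts were tested on simulated data. Sequences are from GENCODE 29 and RefSeq. The check of the targeted gene is not reported here.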

Additional observations from a re-analysis of the deposited data

Results flagged for a closer look

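For 6 keratins the response to more ARv7 differed between C4-2 and 22Rv-1 in the edgeR test of the difference itself, 6 of 13 tested (46.2%) beside 50.7% called over all genes. On the log2 scale, C4-2 minus 22Rv-1, the difference was 3.10 for KRT19, 5.30 for KRT6A, 4.17 for KRT80, 2.61 for KRT17, 0.31 for KRT18 and -0.61 for KRT10. The higher sign of KRT6A, KRT80 and KRT17 was set by the group through which each met the count filter. The calls of KRT17 and KRT10 were lost in 8 and 5 of 12 fits that left out 1 library, and that of KRT80 in 1. In that fit the depleted 22Rv-1 group had no KRT80 read, so it cannot decide. KRT19 rose in C4-2 with ARv7 (log2 2.31) and rose in 22Rv-1 without it (log2 0.78). KRT17 was at 2, 1 and 7 reads in the C4-2 ARv7 libraries and 6, 5 and 1 in C4-2 control, which overlap, against 3, 3 and 2 in 22Rv-1 control and 10, 21 and 30 after depletion, which do not. KRT80 had 3 reads in 22Rv-1 control and 6 after depletion, and KRT6A had 8 and 17, so both differences rest on C4-2 counts set beside very few in 22Rv-1.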

How the results depend on the processing

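Over 655 values of single keratins under the alternatives, 607 kept their direction and side of the threshold, 35 lost a call, 4 gained one and 9 changed sign, all 9 where the gene was not called. The number of called keratins moved by over 1.5 times where fewer were tested. It was 4 in C4-2 and 3 in 22Rv-1 at a mean of 5 CPM or more and with limma at either pseudocount. It was 3 at 5 CPM for the difference between lines, and for the controls 4 at 5 CPM and 3 with limma at either pseudocount. Leaving out 1 library gave 7 called keratins in C4-2 throughout, 5 to 6 in 22Rv-1, 4 to 6 for the difference and 7 to 10 for the controls, and 6673 to 7870, 5793 to 6532, 6752 to 7308 and 11640 to 11965 called genes. KRT18 in C4-2 changed sign to 0.11 with total counts and to 0.11 and 0.12 with limma at pseudocounts 1 and 0.1, and ran from -0.11 without C4-2 control replicate 1 to 0.040 without replicate 3. KRT10 in 22Rv-1 ran from -0.16 without control replicate 3 to 0.032 without replicate 2. For the difference between lines, KRT15 went to -0.24 with DESeq2. There KRT12 ran from -2.36 without C4-2 ARv7 replicate 2 to 1.44 without C4-2 control replicate 2, with 0.01 without ARv7 replicate 1, and KRT7 ran from -2.44 without ARv7 replicate 2 to 2.30 without C4-2 control replicate 3. The cause was not tested.

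Replicate numbers did not pair the samples, since deviations of same-numbered libraries correlated at -0.058 to 0.020. With a replicate block, 7310 genes and 7 keratins were called in C4-2, 6203 and 6 in 22Rv-1, 6865 and 5 for the difference (KRT17 was lost, adjusted p = 0.062) and 11753 and 10 for the controls. Keratins under about 10 reads in a library are limited by depth.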

Other observations

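Some keratins that did not reach 1 CPM still differed by line in their few reads, and were picked out after their values were seen. KRT40, a hair type I keratin, had 5, 4 and 6 reads in 22Rv-1 control and 4, 7 and 5 after depletion, and no read in the 6 C4-2 libraries. Between the controls it was 5.19-fold higher in 22Rv-1 by total counts, with C4-2 set to 3 counts over the group. The exact 95% counting interval of KRT40 began at 3.72. KRT86, a hair type II keratin, had 8 reads over the depleted 22Rv-1 libraries (4, 3 and 1) and 1 over their controls, a ratio of 8.45 with a counting interval of 1.13 to 375. All 7 KRT16 reads of C4-2 control came from replicate 2.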
